A study of Homo sapiens with 36 samples.

Results

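LNCaP cells of the clone labelled HIF49, which carries a HIF1a transgene, were compared with LNCaP/Empty cells under the treatment labelled Normal. The comparison used 11 of the 36 Illumina BeadArrays of the series, 5 of HIF49 and 6 of LNCaP/Empty, chosen by their clone and treatment labels, with all probes. LNCaP is an established prostate cancer cell line that responds to androgen. HIF49 cells had received by virus a HIF1a altered in its amino acids so that it persists in oxygen, and LNCaP/Empty cells the vector alone. A further HIF1a clone, HIF12, had 5 Normal arrays and served to show where HIF49 differed. The labels do not define Normal, and the growth note, which puts the lines in charcoal stripped serum, does not say whether it covers these arrays. HIF49 is 1 clone, so that the transgene and other features of the clone cannot be told apart. Whether the arrays of each group stand for separate cultures is not stated, and p-values therefore measure the spread between arrays, which may be technical.

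HIF1 is a pair of proteins, the oxygen-regulated subunit encoded by HIF1A and the stable subunit encoded by ARNT. In oxygen, the EGLN hydroxylases mark the HIF1A protein, and VHL, part of a ubiquitin ligase, binds the marked protein and leads to its destruction. The pair binds a short DNA core, ACGTG or GCGTG, and is known for raising glycolysis enzymes, glucose transporters and angiogenic factors when oxygen is low.

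Replicate 1 of HIF49 stood apart from its fellows. Of 19105 probes detected on at least 5 arrays, 4102 (21.5%) lay more than 0.5 log2 units outside the range of the other HIF49 arrays, against 123 to 429 for those arrays and 63 to 464 for the LNCaP/Empty arrays. It also had the fewest detected probes, 15374, where the other Normal arrays had 16052 to 17772. By correlation over all tested probes, replicate 1 still matched best with another HIF49 array. Of the 36 arrays 35 matched best within their own group, HIF49 replicate 4 being the exception. All 15 luminal prostate markers with a probe were detected on every HIF49 array and 14 of them on every LNCaP/Empty array. Of these 15, 0 passed the limma test described below, where 1.73% of all genes did. Of the defining markers, the basal KRT5, KRT14 and NGFR and the neuroendocrine CHGA, SYP and INSM1 were detected on none of the 11 arrays. Of longer lists, 5 of 14 basal and 5 of 22 neuroendocrine and neuronal genes were detected on at least 5 arrays of the series. In these lists 0 genes passed by limma, and at 1.73% lists this short may hold none. Of 11 stromal and leukocyte markers 6 were detected on none, and the summed level of the list, in log2 units, ran from 9.57 to 10.26 in HIF49 and from 9.19 to 9.75 in LNCaP/Empty.

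Levels below are log2 intensities after background correction and quantile normalization, differences are HIF49 minus LNCaP/Empty in log2 units, and each adjusted p comes from limma with Benjamini-Hochberg adjustment over all probes. A gene passed when 1 of its probes changed 1.5-fold or more with an adjusted p under 0.05. A probe was detected on an array at a detection p under 0.01. A fold against a group that was detected on no array is a lower bound, taken against the lowest detected signal of each such array.

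HIF1A itself was higher in HIF49 on 4 of 5 arrays by 2 of its 3 probes. Probe ILMN_1763260 read 7.45, 10.00, 10.19, 10.00 and 10.35 on HIF49 arrays 1 to 5, against 8.56 to 8.94 on LNCaP/Empty arrays. Probe ILMN_1681283 read 7.09, 8.80, 9.08, 8.81 and 8.78 in HIF49, against 7.22 to 8.01 in LNCaP/Empty. Replicate 1 was below every LNCaP/Empty array by both probes, and the other 4 arrays were above all of them. The third probe, ILMN_2379788, averaged 8.44 ± 0.55 in HIF49 and 8.48 ± 0.44 in LNCaP/Empty (SD, n = 5 and 6), with a difference of -0.04.

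With all 5 arrays, the second of these probes passed (log2 0.80, SE 0.22, adjusted p = 0.035) and the first did not (log2 0.88, SE 0.29, adjusted p = 0.10). Replicate 1 was singled out for its low HIF1A, so the values without it are a description and no independent test of HIF1A. The second probe then differed by 1.16 (SE 0.15, adjusted p = 3.1e-06) and the first by 1.41 (SE 0.14, adjusted p = 1.7e-08). With all arrays the call was also lost when any 1 of LNCaP/Empty replicates 3, 4 and 6 or HIF49 replicates 2, 3, 4 and 5 was left out (log2 0.66 to 0.80). HIF12 arrays read 10.16 to 10.31 and 9.06 to 9.31 by the same probes, and the difference between the clones did not pass (log2 -0.68, SE 0.23, adjusted p = 0.093 by ILMN_1681283). The plot of the HIF1A probes by array shows the single low HIF49 array.

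**Figure D1:**
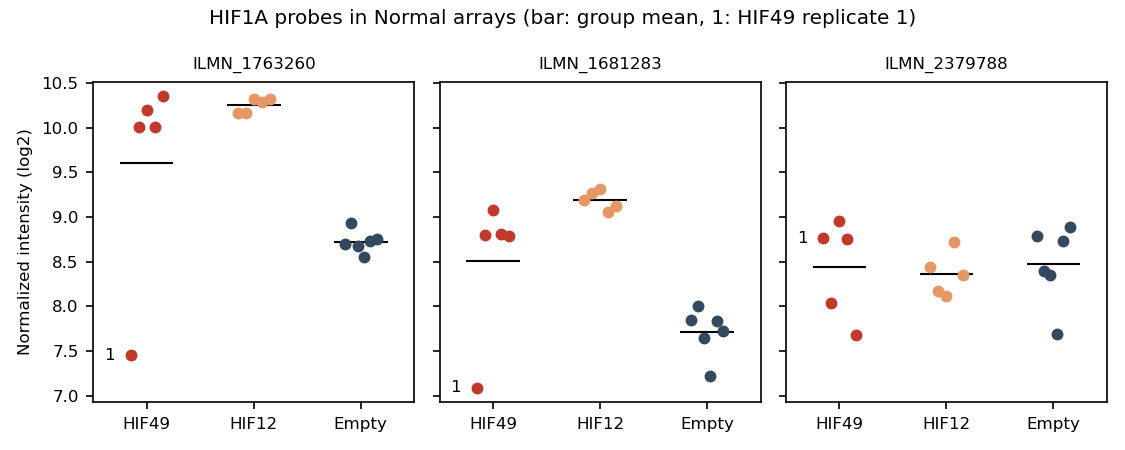
Normalized log2 intensity (y axis) of the 3 HIF1A probes on the 5 HIF49, 5 HIF12 and 6 LNCaP/Empty Normal arrays, with 1 point per array and a bar at each group mean. HIF49 replicate 1, marked 1, lies below the LNCaP/Empty arrays by the first and second probe, and the other HIF49 arrays lie above them.

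Of the 14 genes for HIF subunits and oxygen sensors, HIF1A and ARNT passed, both higher, and the other 12 did not, where 1.73% of all 20045 genes passed in either direction. ARNT, the partner subunit of HIF1A, read 7.58, 6.33, 6.81, 6.78 and 6.39 in HIF49, against 5.95 to 6.25 in LNCaP/Empty. All 5 HIF49 arrays were above the LNCaP/Empty arrays, replicate 1 the most. The difference of 0.63 (SE 0.17, adjusted p = 0.034) dropped to 0.43 without replicate 1 and no longer passed (adjusted p = 0.18). Nor did ARNT pass without LNCaP/Empty replicate 2, 4, 5 or 6 or HIF49 replicate 3 or 4 (log2 0.59 to 0.65). Its call was also lost without background correction (log2 0.32) and with array weights (log2 0.49). The related subunits EPAS1 and HIF3A were detected on none of the 11 arrays by the probes used for them. The hydroxylase EGLN1 averaged 6.91 ± 0.45 in HIF49 and 7.11 ± 0.20 in LNCaP/Empty, and EGLN2 averaged 10.61 ± 0.16 in HIF49 and 10.82 ± 0.09 in LNCaP/Empty (SD, n = 5 and 6). VHL, with a difference of 0.13 (SE 0.11, adjusted p = 0.71), read 10.63 to 10.84 on 4 HIF49 arrays and 11.51 on replicate 1, against 10.60 to 10.84 in LNCaP/Empty.

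Among 45 HIF targets outside glycolysis 0 were higher in HIF49 and 1, PLIN2, was lower. This share of 2.22% was near the 1.73% of all genes that passed, and the median difference was 0.01 for the targets and 0.01 for all genes. Without replicate 1, ANKRD37 was higher and PLIN2 lower. Among 26 genes of glycolysis and glucose transport 0 passed in either direction with limma, with or without replicate 1, and their median difference was 0.08. The lactate dehydrogenase gene LDHA differed by 0.09 (SE 0.10), the glucose transporter gene SLC2A1 by 0.17 (SE 0.09), the angiogenic factor gene VEGFA by -0.0039 (SE 0.11) and BNIP3, whose product acts in removing mitochondria, by -0.13 (SE 0.11). Their adjusted p values lay between 0.44 and 1.00.

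PLIN2, which coats lipid droplets, read 5.14, 5.21, 5.09, 5.14 and 5.36 in HIF49, against 6.48 to 6.68 in LNCaP/Empty. It was detected on no HIF49 array and on all 6 LNCaP/Empty arrays, and was at least 1.59-fold lower in HIF49 (adjusted p = 8.1e-07). Its other probe, detected on 1 of the 11 arrays, did not pass. ANKRD37 read 8.19, 9.09, 8.57, 8.71 and 9.21 in HIF49, against 7.67 to 8.63 in LNCaP/Empty, so that the groups overlapped. Its difference was 0.55 (SE 0.15, adjusted p = 0.042), under 1.5-fold, and 0.69 without replicate 1 (adjusted p = 0.0044).

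The start regions of these genes were read for the HIF core. Shown are PLIN2 and ANKRD37, the HIF targets that passed in 1 of the fits, and JAG1, a Notch ligand gene that the study names and that was higher in HIF49. Each sequence runs from 250 bases before to 50 after the start (RefSeq, GRCh38.p14) on the gene's strand, with each core (ACGTG as well as GCGTG) and its reverse complement in capitals and overlapping matches counted apart. PLIN2 (chr9:19127443-19127742, minus strand) held 5 matches, ANKRD37 (chr4:185396591-185396890, plus strand) 3 and JAG1 (chr20:10673950-10674249, minus strand) 5.
PLIN2: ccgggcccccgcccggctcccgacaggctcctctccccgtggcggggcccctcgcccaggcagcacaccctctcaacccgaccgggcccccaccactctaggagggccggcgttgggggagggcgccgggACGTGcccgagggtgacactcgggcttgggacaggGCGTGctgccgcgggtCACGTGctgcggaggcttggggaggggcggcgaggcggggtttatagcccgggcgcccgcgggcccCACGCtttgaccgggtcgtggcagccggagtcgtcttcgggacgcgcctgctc
ANKRD37: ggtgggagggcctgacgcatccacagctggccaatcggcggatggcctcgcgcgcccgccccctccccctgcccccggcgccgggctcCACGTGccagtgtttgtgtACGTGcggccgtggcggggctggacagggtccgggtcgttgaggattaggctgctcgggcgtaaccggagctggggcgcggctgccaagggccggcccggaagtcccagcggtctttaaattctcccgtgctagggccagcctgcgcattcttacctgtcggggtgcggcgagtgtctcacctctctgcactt
JAG1: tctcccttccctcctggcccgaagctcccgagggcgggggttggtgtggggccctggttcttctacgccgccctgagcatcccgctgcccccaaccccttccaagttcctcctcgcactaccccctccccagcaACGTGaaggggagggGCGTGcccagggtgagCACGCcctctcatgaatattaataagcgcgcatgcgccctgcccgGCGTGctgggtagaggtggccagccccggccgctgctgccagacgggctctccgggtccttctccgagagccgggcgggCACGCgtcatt

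At least 1 match was present in 112 of 221 start regions of the genes higher in HIF49 (50.7%) and in 120 of 216 of the genes lower there (55.6%). The share was 48.4% over all 35116 start regions of the table, 54.8% over those of the genes tested and 84.0% over 50 start regions of the HIF targets outside glycolysis. A match describes these letters and is not a binding site.

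Over all genes, 173 of 20045 were higher and 173 lower in HIF49, 0.863% each, and 94 of them changed at least 2-fold. Without replicate 1 the counts were 171 (0.853%) and 169 (0.843%), in all 1.7% of the genes, of which 133 and 138 genes were shared with the lists from all arrays. An unadjusted p under 0.05 on some probe was reached by 4039 genes (20.1%). Arrays did not overlap on some probe for 463 higher (2.31%) and 386 lower genes (1.93%), and without replicate 1 for 726 (3.62%) and 605 (3.02%). For 41 of the higher genes a probe that passed was detected on no LNCaP/Empty array, and for 36 of the lower genes on no HIF49 array. For 8 genes a probe that passed was detected on none of the 11 arrays. Among genes represented by several probes 170 passed, 32 of them by every probe. Without background correction 57 genes were higher and 85 lower.

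The largest increases included genes of neuronal adhesion and synapse formation. NTNG1, which encodes netrin G1, a membrane-anchored axon guidance protein, read 8.35, 7.79, 8.16, 8.02 and 8.04 in HIF49, against 5.15, 5.66, 5.08, 4.99, 5.12 and 5.06 in LNCaP/Empty, where it was detected on no array. It was at least 4.50-fold higher in HIF49 (fitted difference 2.89, SE 0.10, adjusted p = 1.4e-20). CBLN2, a secreted organizer of synapses, read 9.50 to 10.01 in HIF49, against 6.67 to 7.46 in LNCaP/Empty, and was 6.29-fold higher (adjusted p = 1.0e-18). For neither gene did the arrays overlap.

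NLGN4X, a synaptic adhesion protein of the neuroligin family, read 7.47 to 7.95 in HIF49 and 5.24 to 6.08 in LNCaP/Empty and was 3.99-fold higher in HIF49 (adjusted p = 1.6e-12). It was detected on 1 of 6 LNCaP/Empty arrays, so this fold depends on background. PCDH11X, a protocadherin gene, was also detected on 1 of 6 LNCaP/Empty arrays. It read 6.78, 8.26, 8.11, 7.92 and 8.63 in HIF49, against 5.07 to 6.03 in LNCaP/Empty (log2 2.35, SE 0.23, and 2.64 without replicate 1). Its Y-linked copy PCDH11Y, was at least 2.41-fold higher, being detected on 4 HIF49 arrays and none of LNCaP/Empty, with replicate 1 (5.30) inside the LNCaP/Empty range (5.13 to 5.73). These copies are close in sequence, and their probes may not tell them apart. CACNA1H, a T-type calcium channel subunit, was detected on every HIF49 array and on no LNCaP/Empty array and was at least 2.40-fold higher (adjusted p = 6.5e-14). BRINP3, a gene expressed in the nervous system, read 7.75 to 8.20 in HIF49 and 5.79 to 6.00 in LNCaP/Empty, and was 4.20-fold higher (adjusted p = 5.9e-13).

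Other large increases were in genes of signaling, cell death and transcription. PEG3, an imprinted zinc finger gene, read 12.18, 11.60, 11.52, 11.59 and 11.54 in HIF49, against 9.65 to 9.89 in LNCaP/Empty (log2 1.91, SE 0.12). LPAR3, a receptor for lysophosphatidic acid, read 6.85 to 8.12 in HIF49 and 5.18 to 6.57 in LNCaP/Empty (log2 1.67, SE 0.21). MLKL, the pore-forming effector of necroptosis, read 6.79 to 7.58 in HIF49 and 5.22 to 6.25 in LNCaP/Empty (log2 1.53, SE 0.13). Each of these 3 genes was higher on every HIF49 array than on any LNCaP/Empty array. LPAR3 was detected on 3 and MLKL on 1 of 6 LNCaP/Empty arrays, so their differences depend partly on background.

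RGS2, which dampens G protein signaling, was 2.78-fold higher in HIF49 (adjusted p = 2.2e-09). TWIST1, which encodes a transcription factor known for epithelial-mesenchymal transition, read 9.67, 9.73, 9.41, 9.48 and 9.59 in HIF49, against 7.96 to 8.29 in LNCaP/Empty (log2 1.47, SE 0.10, adjusted p = 4.6e-13). DSC2, a desmosomal cadherin, read 11.54 to 12.37 in HIF49 and 10.16 to 10.66 in LNCaP/Empty, and its chromosomal neighbour DSC1 was higher as well (log2 1.24, SE 0.13). The remaining members of the 15 largest increases were CCDC74B, HENMT1, which methylates the ends of piRNAs, and PRR16, with differences of 1.73, 1.58 and 1.48.

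The largest decrease was in MAP1LC3A, which encodes an LC3 protein of the autophagosome membrane. It read 6.12, 5.92, 5.45, 5.39 and 5.38 in HIF49, where it was detected on no array, against 8.97, 9.08, 9.02, 9.22, 8.90 and 9.00 in LNCaP/Empty. The gene was at least 8.70-fold lower in HIF49 (fitted difference -3.38, SE 0.15, adjusted p = 9.0e-18). Its other 2 probes were detected on none of the 11 arrays. ANKRD29, an ankyrin repeat gene, was detected on no HIF49 array and was at least 2.73-fold lower (adjusted p = 2.1e-17).

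Genes for steroid and thyroid hormone metabolism were also among the 15 largest decreases. DIO1, a deiodinase that activates thyroid hormone, read 5.61, 6.29, 5.88, 6.02 and 6.14 in HIF49, against 7.73 to 8.23 in LNCaP/Empty and was 4.01-fold lower in HIF49 (adjusted p = 1.7e-13), and all 3 of its probes passed. The probe given was detected on 3 of 5 HIF49 arrays. UGT2B15 and UGT2B17 encode the enzymes that attach glucuronic acid to androgens and so inactivate them. UGT2B15 read 7.44, 9.43, 9.42, 9.30 and 9.56 in HIF49, against 10.58 to 11.31 in LNCaP/Empty. UGT2B17 read 9.12, 10.42, 10.16, 10.26 and 10.39 in HIF49, against 11.77 to 12.30 in LNCaP/Empty. Replicate 1 was the lowest array for both, and neither gene's groups overlapped.

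UGT2B15 differed by -1.98 (SE 0.23, adjusted p = 2.0e-07), or by -1.58 without replicate 1. For UGT2B17 the difference was -1.91 (SE 0.18, adjusted p = 1.1e-09), or -1.67 without replicate 1. UGT2B11 and UGT2B10 of the same family were lower by log2 -1.71 (SE 0.16) and -1.56 (SE 0.17). On LNCaP/Empty replicate 4 UGT2B10 read 7.96, below the other LNCaP/Empty arrays (8.96 to 9.39) and above the highest HIF49 array (7.69). UGT2B17, UGT2B15 and UGT2B10 were neighbours among the genes measured on chromosome 4, and UGT2B11 and UGT2B28, also lower, were another neighbouring pair. Members of the family are close in sequence, and a probe of 1 may also read another.

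The start regions of UGT2B10 (chr4:68815744-68816043, plus strand), UGT2B11 (chr4:69214699-69214998, minus strand) and UGT2B15 (chr4:68670603-68670902, minus strand) are shown because these genes changed together and are of the same family. Aligned end to end, UGT2B10 and UGT2B11 were 90.1% identical and UGT2B15 was 69.4% and 70.6% identical to them. None of the 3 held an ACGTG or GCGTG core on either strand, so no letter is in capitals.
UGT2B10: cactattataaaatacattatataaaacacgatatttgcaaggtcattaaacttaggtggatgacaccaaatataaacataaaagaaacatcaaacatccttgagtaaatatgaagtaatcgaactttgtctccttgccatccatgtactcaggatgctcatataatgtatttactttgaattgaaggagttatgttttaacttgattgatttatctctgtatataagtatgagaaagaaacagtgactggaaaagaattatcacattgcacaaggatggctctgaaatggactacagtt
UGT2B11: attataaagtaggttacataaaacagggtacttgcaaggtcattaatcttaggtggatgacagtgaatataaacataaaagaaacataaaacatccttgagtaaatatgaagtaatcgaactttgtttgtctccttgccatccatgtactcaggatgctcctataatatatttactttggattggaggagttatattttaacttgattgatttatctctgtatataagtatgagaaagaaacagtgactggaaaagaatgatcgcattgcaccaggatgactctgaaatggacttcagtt
UGT2B15: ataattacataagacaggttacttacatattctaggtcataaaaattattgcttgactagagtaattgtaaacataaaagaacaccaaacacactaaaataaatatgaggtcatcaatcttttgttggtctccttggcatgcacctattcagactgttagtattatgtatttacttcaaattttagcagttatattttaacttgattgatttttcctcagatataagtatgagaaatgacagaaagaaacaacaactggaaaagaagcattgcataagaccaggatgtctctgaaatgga

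The remaining large decreases were in varied genes. S100P, a calcium-binding protein, read 7.32 to 7.91 in HIF49 and 8.93 to 9.35 in LNCaP/Empty (log2 -1.61, SE 0.15). OR51E2, an olfactory receptor known from prostate, read 5.58 to 6.37 in HIF49 and 7.03 to 8.11 in LNCaP/Empty (log2 -1.57, SE 0.20). MBNL2, a splicing regulator, was lower by 1 of its 3 probes (log2 -1.96, SE 0.18), which was detected on 1 HIF49 array and on all 6 LNCaP/Empty arrays. MAGEA8, NAP1L5, RALYL and RGS11 were detected on all 6 LNCaP/Empty arrays but on none of HIF49, and were at least 1.68-fold, 1.91-fold, 1.5-fold and 1.65-fold lower. The list was completed by an uncharacterized transcript, LOC105379362 (log2 -2.09, SE 0.12).

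All 30 of these increases and decreases also passed without replicate 1. That their groups did not overlap was part of how they were chosen. The plot of the 30 genes shows each array.

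**Figure D2:**
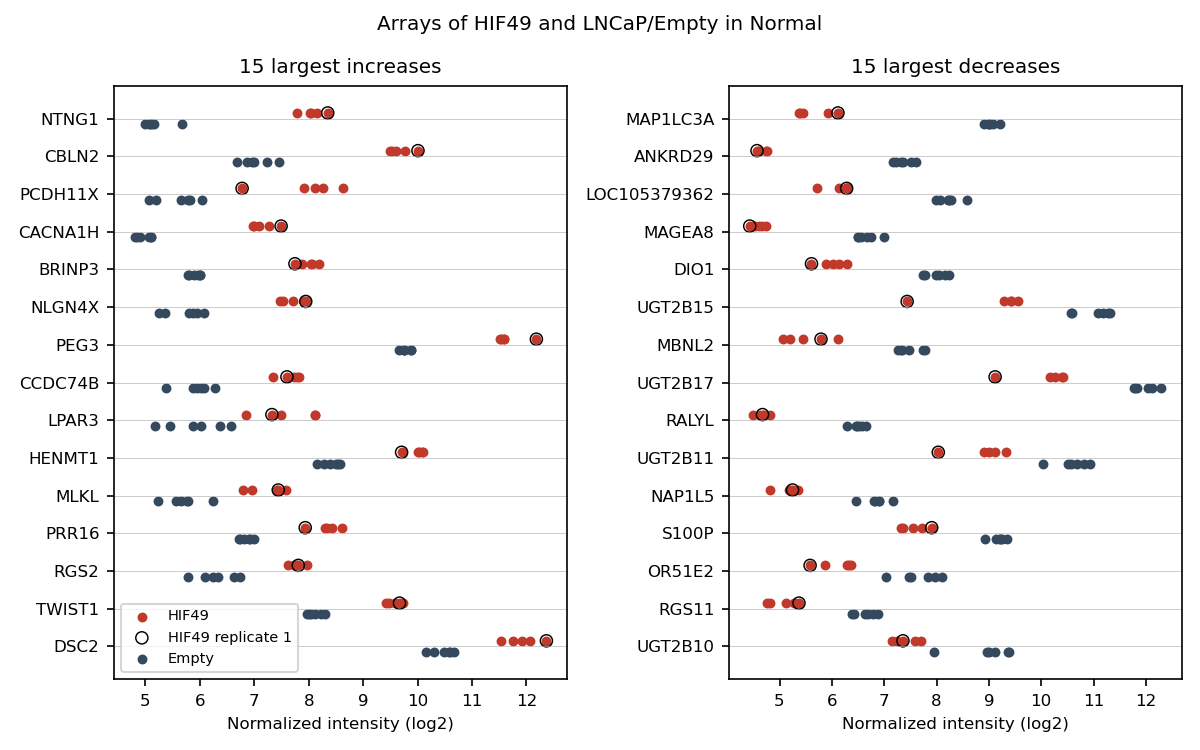
Normalized log2 intensity (x axis) of the 15 largest increases (left) and 15 largest decreases (right) on the 5 HIF49 arrays and the 6 LNCaP/Empty arrays, with 1 point per array and a ring around HIF49 replicate 1. The 30 genes were chosen among those whose groups do not overlap. Replicate 1 is the lowest HIF49 array for several genes, among them UGT2B15, UGT2B17, UGT2B11, DIO1 and HENMT1, and the highest for others, such as PEG3.

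Steroid and xenobiotic metabolism held 7 lower and 1 higher of 43 measured genes (18.6%, where 1.73% of all genes passed), with a median difference of -0.05. The lower ones were the 5 UGT2B genes, SULT2B1 and GSTA1, the last of which did not pass without replicate 1, and the higher one was AKR1C3, which makes active androgens (log2 0.87, SE 0.20, adjusted p = 0.0078). Among 54 androgen-induced genes 2 were higher, HPGD and SGK1, and 3 lower, ABCC4, BMPR1B and TPD52 (9.26% in all). Without replicate 1, 4 were higher, with MAF and PMEPA1 added, and 2 lower, without TPD52. HPGD, which degrades prostaglandins, read 6.67 to 7.22 in HIF49 and 5.08 to 6.46 in LNCaP/Empty (log2 1.16, SE 0.18). HPGD did not pass without background correction (log2 0.56). BMPR1B, a receptor for bone morphogenetic proteins, read 5.70 to 6.63 in HIF49 and 7.28 to 7.84 in LNCaP/Empty (log2 -1.40, SE 0.21). Of 13 androgen-repressed genes 2 were higher, OPRK1 and PCDH11Y, and 4 lower, all of the UGT2B family.

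Cancer-testis antigens, genes normally silent outside the germ line, held 6 lower and 0 higher of 45 measured, with or without replicate 1. This was 13.3% of the list, where 1.73% of all genes passed with all arrays. MAGEA4 was detected on no HIF49 array and on all 6 LNCaP/Empty arrays and was at least 1.44-fold lower (adjusted p = 7.3e-08). MAGEA1 read 7.36 to 8.07 in HIF49 and 8.79 to 9.02 in LNCaP/Empty (log2 -1.08, SE 0.10). MAGEA8, MAGEA10, MAGEC2 and GAGE4 were the others. MAGEC2 was detected on no HIF49 and no LNCaP/Empty array, so its call compares levels near background. A run of 9 neighbouring GAGE genes on the X chromosome, 8 of them GAGE12 copies, was lower too, and probes of these near-identical copies may not tell them apart. In all, 28 of 858 genes on the X chromosome were lower (3.26%) and 6 were higher, where 0.863% of all genes passed in each direction. Without replicate 1, 26 were lower and 7 higher, where 0.843% and 0.853% of all genes were. The 28 include the GAGE copies and copies of the VCX family, so the same signal may be counted more than once.

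Interferon response and antigen presentation held 5 higher and 0 lower of 49 (10.2%, where 1.73% of all genes passed), and 4 higher without replicate 1, with median differences of 0.18 and 0.13. OASL, an antiviral protein, read 6.45 to 6.68 in HIF49 and 4.88 to 5.97 in LNCaP/Empty (log2 1.18, SE 0.15, adjusted p = 1.4e-06). It was detected on 1 of 6 LNCaP/Empty arrays. HERC5, which attaches the ubiquitin-like ISG15, read 9.00, 8.37, 8.72, 8.34 and 8.34 in HIF49, against 7.62 to 7.95 in LNCaP/Empty (log2 0.76, SE 0.14). IFI35 differed by 0.68 (SE 0.11), with overlapping arrays, and DDX60 and OAS3 were the others, OAS3 no longer past 1.5-fold without replicate 1. Without background correction OASL, HERC5 and IFI35 did not pass (log2 0.52, 0.57 and 0.54).

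Metallothioneins, small metal-binding proteins, had a median difference of -0.35 over 9 genes. MT2A passed, at 11.31 to 11.98 in HIF49 and 11.93 to 12.69 in LNCaP/Empty (log2 -0.67, SE 0.10, adjusted p = 3.9e-05), a call lost without HIF49 replicate 3 (log2 -0.58). MT1G also passed without replicate 1 (log2 -0.60). Thus 11.1% of the list passed with all arrays and 22.2% without replicate 1, where 1.73% and 1.7% of all genes did. Of 31 genes of the ATF4 and endoplasmic reticulum stress list 0 passed with all arrays by limma, where 1.73% of all genes did. Without replicate 1 ASNS, CHAC1 and SLC7A5 were lower (9.68%, where 1.7% of all genes passed). The median differences of the list were -0.19 with all arrays and -0.23 without replicate 1. ASNS and SLC7A5 had adjusted p values of 0.0035 and 0.00067 with all arrays, with changes under 1.5-fold (log2 -0.43 and -0.56).

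Of 27 epithelial-mesenchymal genes TWIST1 and S100A4 were higher (7.41%, where 1.73% of all genes passed), S100A4 being detected on 2 of 5 HIF49 arrays and on no LNCaP/Empty array (adjusted p = 0.0083). S100A4 did not pass when LNCaP/Empty replicate 1, 5 or 6 or HIF49 replicate 2 or 5 was left out, nor without background correction (log2 0.27). Of 48 extracellular matrix genes 3 were higher and 1, THBS1, was lower but detected on none of the 11 arrays (8.33% in all). Without replicate 1, 2 of them were higher and 1 lower. COL5A2, a fibrillar collagen chain, read 6.92 to 7.26 in HIF49 and 5.64 to 6.48 in LNCaP/Empty (log2 1.16, SE 0.12, and 0.57 without background correction, where it did not pass), and COL6A1 read 9.03, 7.88, 8.29, 8.20 and 8.27 in HIF49, against 7.38 to 7.77 in LNCaP/Empty (log2 0.80, SE 0.12). Of 60 genes of axon guidance and synapse adhesion 3 were higher, NTNG1, NLGN4X and EPHB4, and 2 lower, EPHA3 and CNTNAP2 (8.33% in all). EPHB4 and CNTNAP2 did not pass without replicate 1, where 2 genes were higher and 1 lower. EPHA3, an ephrin receptor, was detected on 0 of 5 HIF49 arrays and on 4 of 6 LNCaP/Empty arrays.

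Of 27 Notch genes JAG1 was higher and DTX3 lower (7.41%, where 1.73% of all genes passed). JAG1 read 7.85, 7.04, 6.89, 7.25 and 7.02 in HIF49, against 6.08 to 6.81 in LNCaP/Empty (log2 0.76, SE 0.13, adjusted p = 0.00028, and 0.60 without replicate 1). It did not pass without background correction (log2 0.42). Of the other genes the study names with a value here, TWIST1 passed, and PPFIBP2, SPRED1, IGFBP3 and NDRG1 did not, with differences of 0.20, -0.12, 0.19 and 0.22. The study named these genes as raised both by androgen and by HIF1a. It used its HIF1a clone 1 and LNCaP/Empty, grown in charcoal stripped serum. The values here are of HIF49 in Normal and do not repeat that comparison. DTX3 was detected on no HIF49 array and on 1 of 6 LNCaP/Empty arrays, and did not pass without LNCaP/Empty replicate 2 or 4 (log2 -0.47 and -0.58). Neither the 49 cell cycle genes, the 48 of oxidative phosphorylation nor the 29 HOX genes had a member that passed by limma, where 1.73% of all genes did, and their median differences were 0.14, -0.06 and 0.01. VWF, a marker of endothelium, had a difference of 0.70 (SE 0.19, adjusted p = 0.034), which did not pass when LNCaP/Empty replicate 2, 3, 5 or 6 or HIF49 replicate 1 or 2 was left out (log2 0.54 to 0.67). ACTA2, a smooth muscle actin, was lower (log2 -0.63, SE 0.10), a call lost without LNCaP/Empty replicate 3 or without background correction (log2 -0.58 each).

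Some genes passed only when replicate 1 was left out. MAF, a transcription factor, read 7.09, 8.24, 7.67, 8.10 and 8.06 in HIF49, against 7.11 to 7.46 in LNCaP/Empty, with a difference of 0.54 with all arrays (adjusted p = 0.095) and 0.73 without replicate 1 (adjusted p = 0.0060). LBR, a receptor of the inner nuclear membrane, read 5.75 on replicate 1 and 7.26 to 8.50 on the other HIF49 arrays, against 6.76 to 7.04 in LNCaP/Empty. GHDC read 7.87 on replicate 1 and 6.39 to 6.75 on the other HIF49 arrays, against 7.13 to 7.62 in LNCaP/Empty. For all 3 genes replicate 1 lay on the opposite side of the LNCaP/Empty range from the other 4 arrays.

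HIF49 differed from HIF12 more often than from LNCaP/Empty by count, with 382 genes higher (1.91%) and 265 lower (1.32%) in HIF49, or 3.22% in either direction. Without replicate 1 these counts were 368 (1.84%) and 268 (1.34%), or 3.17% in either direction. HIF12 itself had 200 genes higher (0.998%) and 208 lower (1.04%) than LNCaP/Empty, 2.03% in either direction. Comparisons of HIF49 and of HIF12 with LNCaP/Empty share the 6 LNCaP/Empty arrays, and their values are given side by side with the tested difference between the clones.

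Several genes lay on opposite sides of LNCaP/Empty in the 2 clones. RGS2 read 7.62 to 7.97 in HIF49, 4.72 to 5.28 in HIF12, where it was detected on no array, and 5.79 to 6.74 in LNCaP/Empty (at least 3.72-fold higher in HIF49 than in HIF12, adjusted p = 6.8e-16). TM4SF1, a surface protein of the tetraspanin-like family, read 12.12 to 12.36 in HIF49, 9.46 to 9.67 in HIF12 and 11.30 to 11.67 in LNCaP/Empty (2.67, SE 0.10, adjusted p = 1.5e-20). MLKL and PXDN, a peroxidase of the matrix, also averaged highest in HIF49 and lowest in HIF12, MLKL being detected on no HIF12 array. MLKL was at least 2.56-fold higher in HIF49 than in HIF12, and PXDN differed between the clones by 2.26. PXDN overlapped between HIF49 (9.11 to 9.92) and LNCaP/Empty (8.49 to 9.22), and its call against LNCaP/Empty was lost without LNCaP/Empty replicate 3 or 5 or HIF49 replicate 2 (log2 0.65 to 0.69).

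Some germ-line genes averaged highest in HIF12, among those named for their difference between the clones. MAGEC2 was not detected on any HIF49 or LNCaP/Empty array, and read 8.60 to 8.95 in HIF12 (at least 6.93-fold lower in HIF49 than in HIF12, adjusted p = 5.9e-23). MAGEA1 averaged 7.84 ± 0.30 in HIF49, 10.07 ± 0.10 in HIF12 and 8.91 ± 0.09 in LNCaP/Empty (SD, n = 5, 5 and 6). VCX3A, of a sperm protein family on the X chromosome, averaged 8.76 ± 0.13 in HIF49, 11.61 ± 0.05 in HIF12 and 10.27 ± 0.14 in LNCaP/Empty. VCX and VCX3B gave near the same values, and the probes of these copies may not tell them apart. TSPY2, detected on no HIF49 array, was at least 3.12-fold lower in HIF49 than in HIF12, and the relaxin gene RLN1 differed between the clones by -2.34. MAGEA4 and MAGEA8 averaged highest in LNCaP/Empty. Of the 45 cancer-testis antigens 9 were lower and 0 higher in HIF49 than in HIF12, with a median difference of -0.08. Over all genes 1.32% were lower and 1.91% higher in HIF49 than in HIF12.

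A further set was changed against LNCaP/Empty in HIF49 and did not pass in HIF12, with a tested difference between the clones. PEG3 averaged 11.69 ± 0.28 in HIF49, 9.56 ± 0.12 in HIF12 and 9.77 ± 0.09 in LNCaP/Empty, and DIO1 averaged 5.99 ± 0.26 in HIF49, 8.29 ± 0.10 in HIF12 and 7.99 ± 0.20 in LNCaP/Empty (SD, n = 5, 5 and 6). HIF49 minus HIF12 was 2.12 for PEG3 (SE 0.13) and -2.30 for DIO1 (SE 0.14, adjusted p = 1.0e-14). PCDH11X was detected on every HIF49 array and on no HIF12 array and was at least 4.15-fold higher. TWIST1 differed from LNCaP/Empty by 1.47 in HIF49 and 1.19 in HIF12, and UGT2B15 by -1.98 in HIF49 and -1.87 in HIF12. The difference between the clones was 0.28 (SE 0.10) for TWIST1 and -0.10 (SE 0.24) for UGT2B15, neither past the threshold. MAP1LC3A was detected on no array of either clone. Of the 30 largest changes of HIF49 against LNCaP/Empty, 22 also passed in the same direction in HIF12 against LNCaP/Empty. Over all genes 2.03% passed there in either direction, and both comparisons use the same LNCaP/Empty arrays. Between the clones 17 of the 30 differed, where 3.22% of all genes did. The 30 were chosen by their HIF49 values, which this comparison also uses. NTNG1 differed from LNCaP/Empty by 3.94 in HIF12 and by 2.89 in HIF49.

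**Figure D3:**
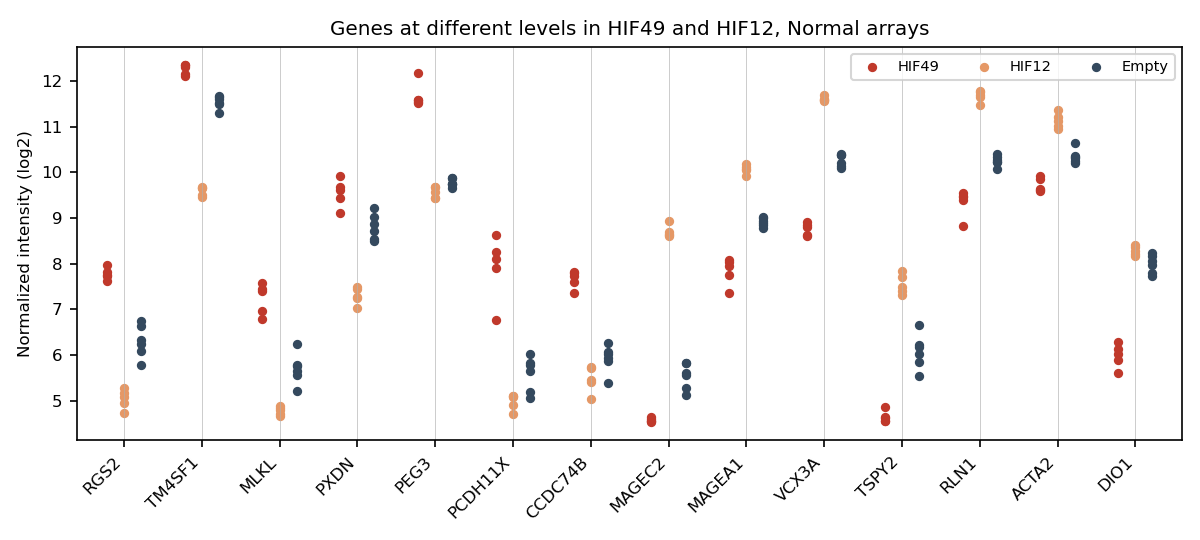
Normalized log2 intensity (y axis) of 14 genes on the HIF49, HIF12 and LNCaP/Empty Normal arrays, with 1 point per array. RGS2, TM4SF1, MLKL and PXDN average highest in HIF49 and lowest in HIF12, and MAGEA1, VCX3A, TSPY2 and RLN1 average lowest in HIF49 and highest in HIF12.

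The differences of HIF49 were not spread evenly over the chromosomes. Genes detected on at least 5 arrays were put in their order along each chromosome (RefSeq, GRCh38.p14) and divided into 217 blocks of about 50 genes. On chromosome 1 the first 12 blocks had median differences of -0.09 to 0.10, and the last 10 blocks, from PHGDH to PGBD2, a stretch that includes the long arm, had 0.15 to 0.29. These stretches were chosen after their values were seen, and no test was made of them.

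In the second stretch of chromosome 1, 82.6% of 493 detected genes had a difference above 0, where 52.5% of the genes in all blocks did. The median of its genes' deviations from the LNCaP/Empty mean was 0.20, 0.23, 0.22, 0.24 and 0.24 on HIF49 arrays 1 to 5, against -0.02 to 0.03 on LNCaP/Empty arrays. Replicate 1 was near its fellows by this median, although not by HIF1A. Block by block it ran from -0.11 to 0.47 in this stretch, where the other 4 HIF49 arrays ran from 0.13 to 0.37. On HIF12 arrays the same median was -0.19 to -0.15. Of 964 genes tested in the stretch 32 were higher in HIF49 (3.32%, where 0.863% of all genes were) and 4 lower, against 7 higher and 9 lower of 1038 in the first stretch. ARNT, RGS2, BRINP3 and S100A4 were among the 32. Gene copy number was not analysed here.

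Outside chromosome 1, the blocks with medians of 0.20 or more were the last 2 of chromosome 4, from NAA15 to FRG1, with 0.20 and 0.26. There 10 of 171 genes tested were higher (5.85%) and 0 lower, HPGD and DDX60 among them, and the array medians were 0.16 to 0.31 in HIF49 and -0.08 to 0.04 in LNCaP/Empty. Chromosome 13 ran the other way, with a median difference of -0.13 over 192 detected genes. Of 346 genes tested there 8 were lower (2.31%) and 1 higher, where 0.863% of all genes passed in each direction. ABCC4 and MBNL2 were among the lower. The array medians were uneven, -0.24, -0.19, -0.09, -0.06 and -0.11 on HIF49 arrays 1 to 5, against -0.03 to 0.03 in LNCaP/Empty. The first block of chromosome 13 had the lowest median of all, -0.26. The 201 blocks outside these stretches had medians of -0.20 to 0.14. Without replicate 1 the medians were 0.23 for the second stretch of chromosome 1, 0.23 for the end of chromosome 4 and -0.11 for chromosome 13. Genes higher and lower then numbered 31 and 3, 12 and 0, and 0 and 8 in these stretches, where 0.853% and 0.843% of all genes were.

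**Figure D4:**
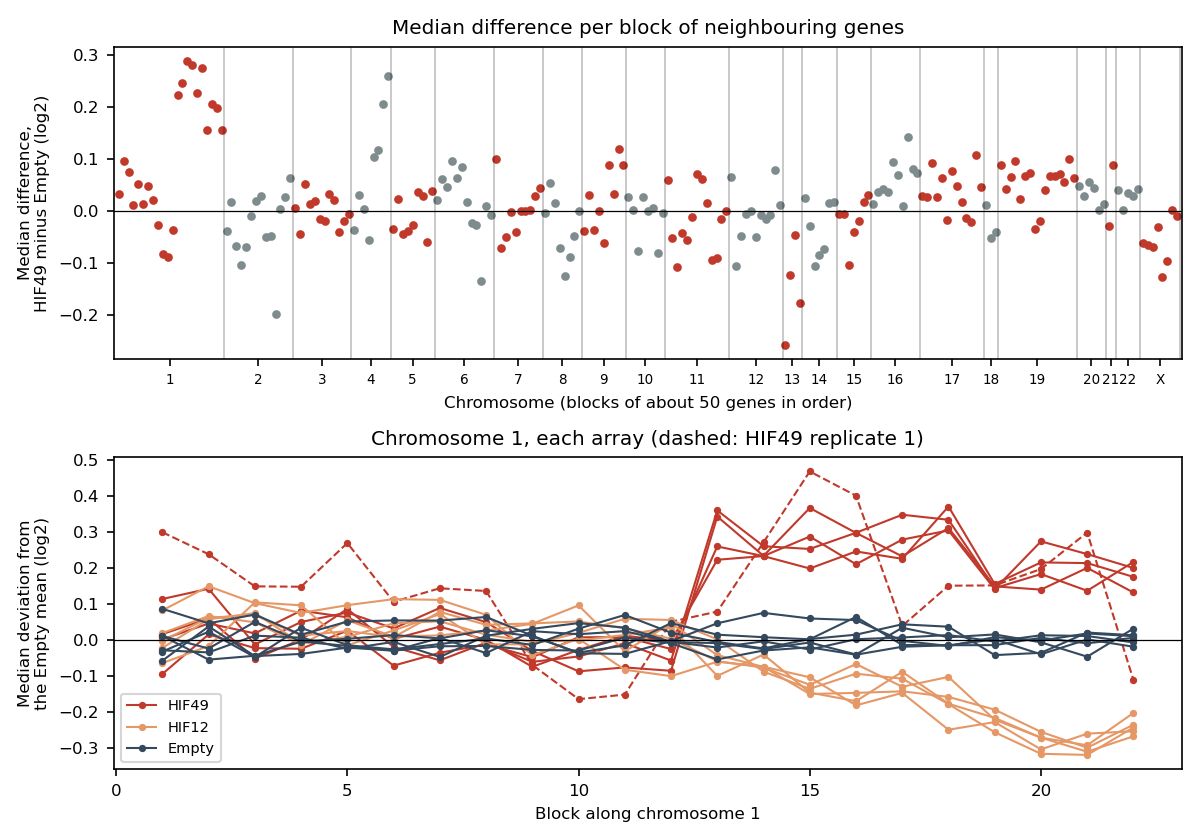
Top, median HIF49 minus LNCaP/Empty difference (log2, y axis) of each of 217 blocks of neighbouring genes in order along the chromosomes (x axis). Bottom, for each Normal array, the median deviation from the LNCaP/Empty mean in the 22 blocks of chromosome 1, where HIF49 arrays lie above LNCaP/Empty arrays and HIF12 arrays below them in most blocks of the second stretch.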

How the data were processed

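RNA of LNCaP clones was measured on 36 Illumina BeadArrays. The authors deposited a table of probe intensity values that were not normalized, with a detection p-value for each probe and array, and a table of normalized intensity values, which here served as an alternative. Columns were matched to arrays by the running number that opens each title. The study's filter on poorly matching probes was not repeated here.

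Intensities of 48107 probes were background-corrected with nec (offset 16), quantile normalized and taken to log2, and 48105 probes without missing values were tested with lmFit and eBayes (limma 3.58.1, R 4.3.3) on all 36 arrays in 7 groups, with Benjamini-Hochberg adjustment over these probes. A call needed an adjusted p under 0.05 and at least 1.5-fold on 1 probe. Counts of genes called higher or lower than in LNCaP/Empty, over all genes and in lists, were repeated without HIF49 replicate 1. So were those over all genes against HIF12. Other counts use all arrays unless stated. Of the probes 30112 carried 1 gene name in the platform annotation, 8 several and 17985 none, giving 20045 genes. A gene's value is that of its called probe with the largest change, or of its brightest probe where none was called, for genes named outside the rule and in lists' medians. Named were the 15 largest increases and 15 largest decreases among called genes with no overlap and detection on every array of the higher group, up to 3 called genes of each list by size, the oxygen-sensing list, genes the study names, up to 8 genes per direction called only without replicate 1, and up to 8 per direction with the largest difference between the clones among genes called in both comparisons. Other genes were named after their values were seen. The members and lists were chosen with earlier results of these data known. The code was tested on simulated data. The number of arrays limits the precision. Alternatives covered background correction, scaling, probe filters, the arrays fitted, array weights, blocks, the fold threshold and leaving out each array.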

Additional observations from a re-analysis of the deposited data

Results flagged for a closer look

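In 16 of 188 groups of arrays of a named gene 1 array stood apart from the rest of its group by Dixon's criterion, which chance meets in about 1 of 20 groups. HIF49 replicate 1 was the array in 11 of them, but the named genes include HIF1A, for which this array was singled out, and genes that passed only without it, so that this number is no test of the array. It read low for UGT2B15 (7.44, others 9.30 to 9.56), UGT2B17 (9.12, others 10.16 to 10.42), HIF1A (7.09, others 8.78 to 9.08), HENMT1 (9.71, others 10.01 to 10.09), NEIL3 (6.87, others 7.80 to 8.12) and RLN1 (8.83, others 9.40 to 9.55). It read high for PEG3 (12.18, others 11.52 to 11.60), VHL (11.51, others 10.63 to 10.84), CITED4 (8.70, others 7.86 to 8.03), SPRED1 (8.47, others 7.98 to 8.09) and GHDC (7.87, others 6.39 to 6.75). HIF49 replicate 3 read low for LOC105379362 (5.71, others 6.14 to 6.28). LNCaP/Empty replicate 4 read low for UGT2B10 (7.96, others 8.96 to 9.39) and ABCC4 (11.83, others 12.21 to 12.40), LNCaP/Empty replicate 2 read high for NTNG1 (5.66, others 4.99 to 5.15), and LNCaP/Empty replicate 3 read high for ACTA2 (10.64, others 10.21 to 10.36).

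The effect against LNCaP/Empty differed between the clones for 38 named genes, by the limma contrast of HIF49 minus HIF12, where 3.22% of all genes passed. Up to 8 genes per direction were named for this very difference, so that the number is no test. Values are given here as fitted log2 differences. These depend on background where a clone was detected on no array, which holds in HIF12 for PCDH11X, PCDH11Y, RGS2, MLKL, CCDC74B, GHDC, TOR1AIP2 and S100A4, and in HIF49 for MAGEC2, TSPY2, MAGEA8 and NAP1L5. Higher in HIF49 were PCDH11X (2.96), RGS2 (2.74), TM4SF1 (2.67), MLKL (2.47), PCDH11Y (2.46), PXDN (2.26), CCDC74B (2.19), PEG3 (2.12), CBLN2 (1.75), GHDC (1.69) and BRINP3 (1.60). Smaller differences in that direction were those of HERC5 (1.08), IFI35 (0.98), IGFBP3 (0.91), ARNT (0.87), HENMT1 (0.80), DSC2 (0.71), TOR1AIP2 (0.68), CACNA1H (0.68), S100A4 (0.64) and CITED2 (0.60). Lower in HIF49 were MAGEC2 (-4.13), VCX (-2.93), TSPY2 (-2.91), VCX3B (-2.87), VCX3A (-2.85), RLN1 (-2.34), DIO1 (-2.30) and MAGEA1 (-2.24). Smaller differences in that direction were those of MAGEA8 (-1.44), ACTA2 (-1.41), MBNL2 (-1.30), S100P (-1.18), HS3ST1 (-1.10), NTNG1 (-1.05), NAP1L5 (-1.02), LOC105379362 (-0.75) and COL5A2 (-0.66).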

How the results depend on the processing

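Of 62 named values that passed, 46 passed under every one of up to 22 alternatives, 16 did not under at least 1, and 0 reversed. Counts moved by over 1.5 times with the background correction and the fold threshold. For HIF49 against LNCaP/Empty they were 57 higher and 85 lower without background correction (57 and 83 of them shared with the counts in the report), 71 and 98 with normexp at an offset of 50, 57 and 85 with the deposited normalized table, and 40 and 54 at 2-fold. Without replicate 1 these were 50 and 79, 63 and 90, 49 and 79, and 35 and 54. For HIF49 against HIF12 they were 146 and 98, 173 and 109, 146 and 97, and 67 and 62. The cause was not tested, other than that a higher fold threshold admits fewer genes. The share of higher genes among all called was 50% with all arrays and 50.3% without replicate 1, against 40.1% and 38.8% without background correction. Leaving out 1 array at a time gave 161 to 213 higher and 161 to 217 lower against LNCaP/Empty, 160 to 182 and 161 to 184 without replicate 1, and 361 to 425 and 249 to 307 against HIF12. With the replicate number as a block there were 160 higher and 170 lower, 163 and 167 without replicate 1, and 381 and 263 against HIF12. The numbers did not pair the arrays, with correlations of deviations in HIF49 and LNCaP/Empty of 0.12, 0.07, 0.01, -0.24 and -0.13, and 1 HIF49 array correlated best with its own number. HIF1A by ILMN_1681283 did not pass with median scaling (log2 0.78), only the compared arrays or the block (0.80 each). By ILMN_1763260, which did not pass in the main fit, it passed without background correction and with the deposited normalized table (0.80 each). That probe also passed with normexp (0.82), the filter on detected probes (0.88) and array weights (1.24). Over 22 alternatives, applied after the stretches were seen, the median difference was 0.17 to 0.23 in the second stretch of chromosome 1, -0.01 to 0.03 in the first, 0.15 to 0.24 at the end of chromosome 4 and -0.16 to -0.10 on chromosome 13. Genes detected on no array of a group have only a bound.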
